A study of Mus musculus with 2 samples.

Results

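Keratinocyte-like medullary thymic epithelial cells (mTECs) were chosen by the summed level of 5 genes of the differentiated epidermis, Krt10, Sbsn, Calm4, Lor and Ivl. A cell had to hold at least 8 unique molecular identifiers (UMIs, each standing for 1 captured RNA molecule) of these genes per 10000 of its UMIs, with at least 2 of the 5 genes detected. Cells with any UMI of the leukocyte gene Ptprc were left out, as were cells with 2 or more UMIs of the microfold gene Gp2 and cells with 10 or more per 10000 of the tuft genes Trpm5, Dclk1 and Alox5ap. Among cells that had 500 genes or more, 1000 UMIs or more and no more than 15% of UMIs from mitochondrial genes, the rule found 251 of 8208 in the fl/fl-labelled library and 55 of 5099 in the +/fl-labelled library, 306 of 13307 in all. They were set against the other cells with an Epcam UMI, 7043 in the fl/fl-labelled library and 4525 in the +/fl-labelled library. The conditions on Ptprc, Gp2 and the tuft genes were not applied to these other cells.

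Medullary thymic epithelial cells present self-antigens to developing T cells, and the nuclear factor Aire switches on many of these antigens. Some mTECs take on the gene programme of a peripheral cell type, and the keratinocyte-like ones resemble the upper layers of the epidermis and are related to the Hassall's corpuscles of the medulla. In the epidermis, cells that leave the basal layer exchange the keratins Krt5 and Krt14 for Krt1 and Krt10, strengthen their desmosomes, load lamellar granules with lipids and cross-link a cornified envelope, and proteases held in check by inhibitors then shed the dead surface.

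The series addressed how conditional loss of Ikaros, a zinc-finger transcription factor encoded by Ikzf1, alters sorted mouse mTECs. It holds 2 droplet libraries read from the 3′ end of transcripts of EPCAM+Ly51- thymic cells, 1 library per genotype. The labels give 1 as Foxn1-Cre(+) Ikarosfl/fl and the other as Foxn1-Cre(+) Ikaros+/fl. Both carry the Foxn1-driven Cre recombinase, which acts in thymic epithelium, so the +/fl cells also hold 1 floxed allele. The sources used here do not give the age or number of the mice or the floxed exons.

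The deposited matrices held 11095 barcodes with 99871505 UMIs in the fl/fl-labelled library and 7304 barcodes with 85260592 UMIs in the +/fl-labelled library. The submitters' names for the matrices run against the genotype labels, since the matrix of the +/fl sample is named as the knockout and that of the fl/fl sample as the control. The libraries also differed in sex-linked genes, as keratinocyte-like cells had 0 counts per 1000000 UMIs (CPM) of Xist in the fl/fl-labelled library and 839.4 CPM in the +/fl-labelled library, and 67.6 and 0 CPM of the Y-linked gene Ddx3y. Genotype, sex and library therefore cannot be told apart, and the libraries are named by their label throughout. Ikzf1 itself stood at 22.9 CPM in keratinocyte-like cells of the fl/fl-labelled library and 36.9 CPM in those of the +/fl-labelled library, with 37.3 and 64.5 CPM in other Epcam-positive cells. Its 3′ level checks neither label, because a transcript that has lost internal exons can keep its 3′ end. The libraries shared 25 deposited barcodes, 11 among the cells that passed the filter and 0 among keratinocyte-like cells.

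All levels below are UMIs summed over a set of cells and given as CPM of that set's UMIs. Each transcript gives about 1 tag whatever its length, so CPM can be set side by side between genes. Intervals are exact 95% intervals that cover counting error only, not the spread between mice, and no test between conditions was possible with 1 library each. A gene was counted as higher or lower at 2-fold or more, with 1 CPM added to both levels.

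Markers given with the label but outside the rule were also higher in keratinocyte-like cells. They were chosen with earlier results of these data known, so their levels describe these cells and do not test the label. Of the 6 markers given with it, Krt10, Sbsn, Calm4 and Ivl set the rule, while Spink5 and Grhl3 did not. Spink5 encodes LEKTI, the inhibitor of the skin kallikreins. Its level was 2588 CPM in keratinocyte-like cells and 224 CPM in other Epcam-positive cells of the fl/fl-labelled library, 11.6-fold higher (11.3 to 11.9). In the +/fl-labelled library it was 3993 CPM in keratinocyte-like cells and 53.5 CPM in the others, 74.6-fold higher (71.4 to 78.1). Grhl3, a grainyhead-like factor needed for the skin barrier, was lower in absolute level, at 21.4 and 6.93 CPM in keratinocyte-like and other cells of the fl/fl-labelled library and 31.9 and 6.29 CPM in those of the +/fl-labelled library. The folds were 3.09 (2.38 to 3.96) in the fl/fl-labelled library and 5.07 (3.42 to 7.26) in the +/fl-labelled library. Both markers outside the rule therefore stood above the other epithelial cells in each library.

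The share of cells with a UMI gave the same order once every cell was thinned to 2000 UMIs. Spink5 was found in 62.3% of thinned keratinocyte-like cells and 9.02% of other Epcam-positive cells of the fl/fl-labelled library, against 1.37% of Ptprc-positive Epcam-negative cells, which should lack it. In the +/fl-labelled library the shares were 86.3%, 2.13% and 0.820%. For Grhl3 they were 4.39%, 1.30% and 0.685% in the fl/fl-labelled library, and 7.84%, 1.42% and 0% of 122 cells in the +/fl-labelled library, where a count of 0 in these cells allows an exact upper bound of 2.98%. Before thinning, Spink5 was seen in 75.7% and 90.9% of keratinocyte-like cells of the fl/fl-labelled and +/fl-labelled libraries, and in 4.88% and 0.752% of the Ptprc-positive cells. Median depths were 12157 and 17425 UMIs in keratinocyte-like cells of the fl/fl-labelled and +/fl-labelled libraries, 9504 and 11913 in the other Epcam-positive cells, and 4413.5 and 6667 in the Ptprc-positive cells. Thinning left out 23 and 4 keratinocyte-like cells as too shallow.

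Of the genes that set or follow the rule, 5 in the epidermal gene clusters are shown by the 250 bases before their transcription starts. They are examples, picked because each holds the motif TGANTCA (searched on both strands), where N is any base. TGANTCA is a loose form of AP-1, the site class of the Fos and Jun factors. The match is TGAATCA in Sbsn and TGAGTCA or TGACTCA in the other genes shown. Flg, on chromosome 3 like Lor and Ivl, has a match 103 bases before its start and is not shown. Sbsn (chr7:30751221-30751470), Dmkn (chr7:30763506-30763755, the first of 3 annotated starts) and Krtdap (chr7:30787655-30787904) lie next to each other on the plus strand, and Lor (chr3:92083143-92083392) and Ivl (chr3:92573736-92573985) lie on the minus strand. The sequences are those of RefSeq on GRCm38.p6, written 5′ to 3′ on the gene's strand with the motif in capitals.
Sbsn: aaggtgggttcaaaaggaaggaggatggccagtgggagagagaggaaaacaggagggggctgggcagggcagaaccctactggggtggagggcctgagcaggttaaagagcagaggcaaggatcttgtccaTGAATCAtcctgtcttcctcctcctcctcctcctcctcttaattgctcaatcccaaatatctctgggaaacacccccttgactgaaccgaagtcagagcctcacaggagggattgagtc
Dmkn: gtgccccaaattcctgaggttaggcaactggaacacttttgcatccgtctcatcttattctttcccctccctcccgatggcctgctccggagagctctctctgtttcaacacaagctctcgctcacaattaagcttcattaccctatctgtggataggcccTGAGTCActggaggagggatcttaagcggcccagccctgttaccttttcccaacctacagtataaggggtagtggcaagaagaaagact
Krtdap: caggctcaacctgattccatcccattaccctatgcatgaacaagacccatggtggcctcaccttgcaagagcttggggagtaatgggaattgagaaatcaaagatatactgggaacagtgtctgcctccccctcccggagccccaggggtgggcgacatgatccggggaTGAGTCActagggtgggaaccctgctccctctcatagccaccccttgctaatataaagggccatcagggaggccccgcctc
Lor: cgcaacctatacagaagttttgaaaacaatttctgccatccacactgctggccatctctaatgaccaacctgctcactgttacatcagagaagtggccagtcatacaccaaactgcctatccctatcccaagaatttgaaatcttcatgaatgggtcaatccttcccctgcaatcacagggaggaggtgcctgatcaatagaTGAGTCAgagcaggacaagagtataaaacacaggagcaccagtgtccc
Ivl: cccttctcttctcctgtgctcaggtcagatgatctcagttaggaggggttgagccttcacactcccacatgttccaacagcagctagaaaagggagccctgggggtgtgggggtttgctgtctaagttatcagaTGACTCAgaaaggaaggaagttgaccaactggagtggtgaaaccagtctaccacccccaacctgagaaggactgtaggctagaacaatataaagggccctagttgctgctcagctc
The motif began 119, 89, 81, 48 and 116 bases before the start in the order listed. It was found for 3 of the 5 rule genes, with no match for Krt10 and Calm4, and for 4 of the 13 genes with a listed promoter among the 15 named highest, with no match for Hrnr, which lies on chromosome 3 like Lor and Ivl. It was found in the same window of 7.82% of 27025 mouse genes and of 29 of the 221 genes with a listed promoter (13.1%) among those higher in keratinocyte-like cells in both libraries. The TATA motif TATAAA was found in 14.3% of all genes and 14.5% of the 221, and the grainyhead motif AACCNGTT in 2% of all genes and 2.26% of the 221. These are matches of letters in a window and say nothing of whether a factor binds there.

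To be measured, a gene had to reach 50 CPM in keratinocyte-like or in other Epcam-positive cells of each library. It also had to have 50 UMIs or more over these 2 sets of cells in each library. Across the 3278 genes that did so, rule genes left out, 306 (9.33%) were higher in keratinocyte-like cells in both libraries and 134 (4.09%) were lower in both. The median log2 ratio over all these genes was −0.08 in the fl/fl-labelled library and −0.09 in the +/fl-labelled library. The cells were chosen by their expression, so these counts describe the chosen cells, and a gene that is scarce in other cells could enter the list only through its level in keratinocyte-like cells. The 15 genes with the highest ratio in both libraries were Krtdap, Psapl1, Cnfn, Gm94, Sdr16c6, Tmem45a, Efna3, Cyp2b19, Hrnr, Lgals7, Lypd3, Krt1, Cysrt1, Lypd5 and Flg.

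Measured genes of the cornified envelope and its precursors were far higher in keratinocyte-like cells. Of 15 measured outside the rule, 14 were higher in both libraries, beside 9.33% of all genes. Their median log2 ratio was 4.19 in the fl/fl-labelled library and 5.97 in the +/fl-labelled library. The files held 57 genes of this list, 3 of them rule genes, and most were too low to be measured. A gene scarce in other cells could be measured only through keratinocyte-like cells, so this count and those below are descriptions. Krtdap, a small secreted protein of differentiating keratinocytes, was at 4410 and 78.4 CPM in keratinocyte-like and other cells of the fl/fl-labelled library, a ratio of 56.2 (54.6 to 57.9). In the +/fl-labelled library the levels were 9551 and 200.2 CPM, a ratio of 47.7 (46.5 to 49.0). Cnfn, cornifelin of the cornified envelope, was at 592 and 777 CPM in keratinocyte-like cells of the fl/fl-labelled and +/fl-labelled libraries, and at 16.5 and 4.97 CPM in the others. Flg, filaggrin, which bundles keratin filaments, was at 549.9 and 458 CPM, and at 22.2 and 6.19 CPM in the others. The filaggrin-like Hrnr followed with 265 and 324 CPM, and with 8.40 and 1.86 CPM in the others. Ly6d, a surface protein of stratified epithelium, was already present in other cells, with 4478 and 5846 CPM in keratinocyte-like cells and 454.5 and 344 CPM in the others. Tchh, trichohyalin of hair sheaths and some epithelia, was the member that did not reach 2-fold in both libraries, at 130.0 and 116 CPM in keratinocyte-like cells and 104 and 26.1 CPM in the others.

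Genes of the last steps of cornification were scarce. The late cornified envelope genes, which skin makes at the very end of differentiation, numbered 18 in the files. Their levels ran up to 23.9 CPM in keratinocyte-like cells of the fl/fl-labelled library and 6.98 CPM in those of the +/fl-labelled library, and no gene of the cluster was seen in more than 2.79% and 9.09% of these cells. In the other Epcam-positive cells they ran up to 16 and 6.44 CPM. In both libraries, 14 of the 18 were lower by any amount in keratinocyte-like cells than in the others. Levels this low lie near the floor, since 3 UMIs make 2.99 CPM in keratinocyte-like cells of the +/fl-labelled library. A level of 0 there can come from depth alone, so this count shows no direction. The share of all genes lower by any amount was not counted. Lor, loricrin, the main protein of the mature envelope and a rule gene, was seen in 18.3% and 10.9% of them, at 1126 and 543 CPM, and a single cell held 51.1% and 67.3% of its UMIs. The Sprr2 genes are near-identical copies that can share reads, so their single values are uncertain, and none of the 10 was seen in more than 7.17% and 3.64% of the cells.

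Keratins of suprabasal and activated epidermis were higher as well, 10 of 10 measured in both libraries, beside 9.33% of all genes. Their median log2 ratios were 3.50 and 5.06. The files held 15 keratins of this list, 1 of them a rule gene. Krt1, the partner of Krt10, was at 331 CPM in keratinocyte-like cells and 11.7 CPM in other cells of the fl/fl-labelled library, and at 549 and 5.54 CPM in the +/fl-labelled library, where 1 cell held 61.3% of its UMIs. Krt77, a type II keratin of suprabasal mouse skin, was at 488 and 989.9 CPM in keratinocyte-like cells of the fl/fl-labelled and +/fl-labelled libraries, and at 23.2 and 12.1 CPM in the others. Krt16, a keratin of stressed and hyperproliferative epidermis, was at 1019 and 1265 CPM, and at 49.2 and 21.3 CPM in the others. Its relative Krt17 was the most abundant of the listed keratins, at 6047 and 11498 CPM, and at 1723 and 2220 CPM in the others. The basal keratin Krt5 was still present, at 891 and 1891 CPM in keratinocyte-like cells and 372 and 689 CPM in the others, 2.40-fold (2.31 to 2.49) and 2.75-fold (2.62 to 2.88) higher. Krt14, its usual partner, had 651 and 359 CPM in keratinocyte-like cells and 417 and 639.8 CPM in the others, so that it was above the others in 1 library and below them in the other. The simple keratin Krt8 was at 1575 and 1066 CPM in keratinocyte-like cells and 1802 and 1857 CPM in the others.

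**Figure D1:**
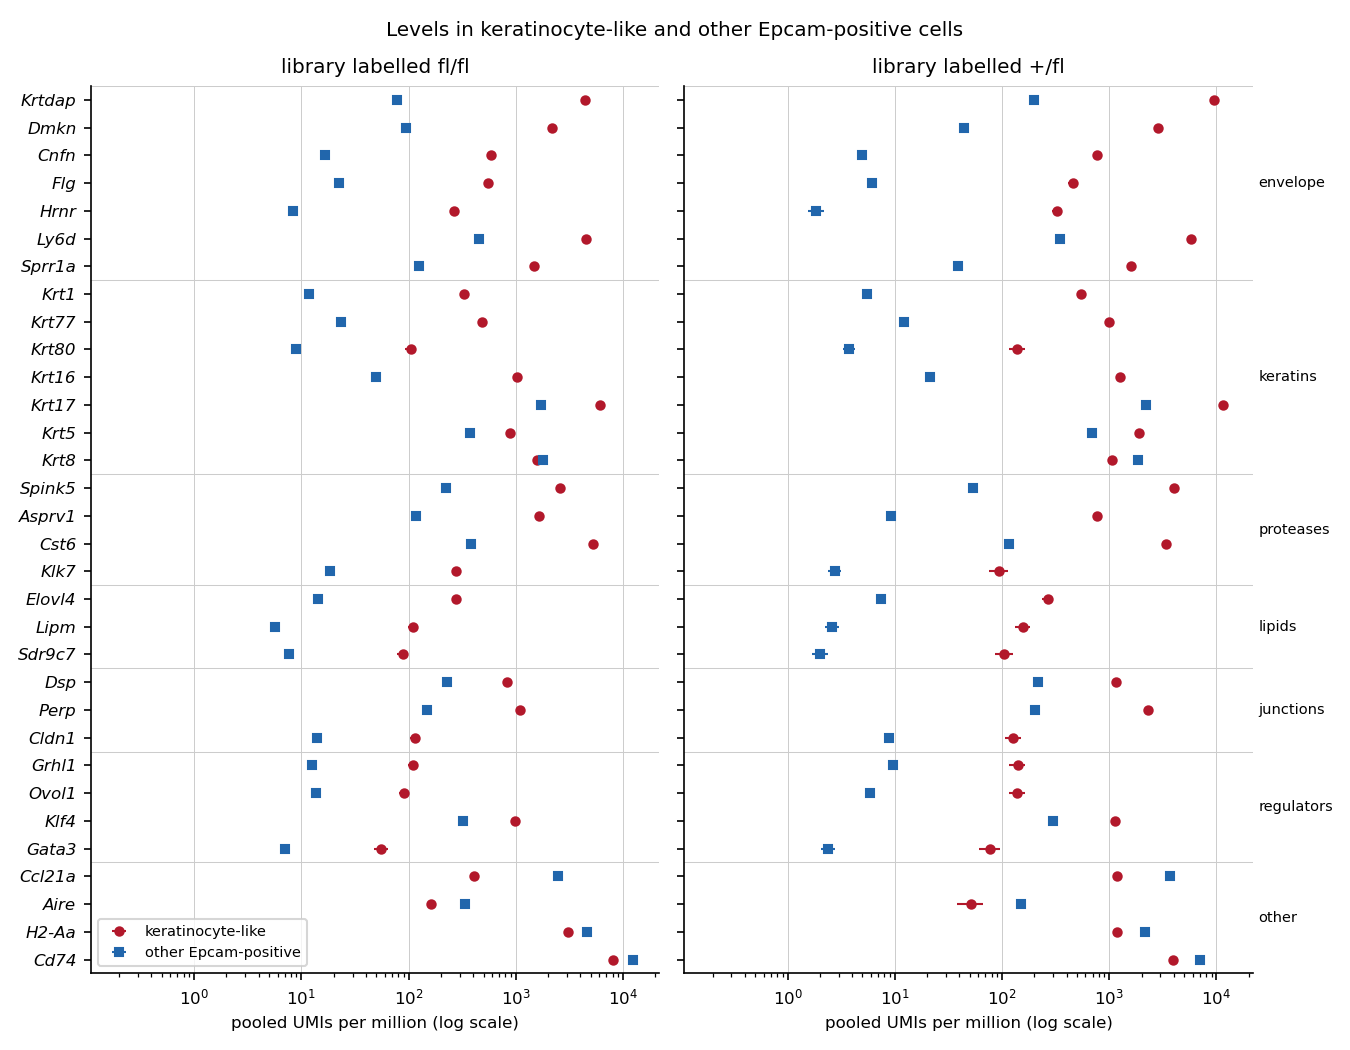
Levels of 32 genes by role in keratinocyte-like cells (red circles) and other Epcam-positive cells (blue squares), as CPM on a log axis, for the fl/fl-labelled library (left) and the +/fl-labelled library (right), with exact 95% counting intervals. Envelope genes such as Krtdap (4410 against 78.4 CPM, and 9551 against 200.2 CPM) are furthest apart, while Krt8 differs by less than 2-fold, and Ccl21a, Aire, H2-Aa and Cd74 are lower in keratinocyte-like cells.

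The proteases that shed the skin surface and their inhibitors were higher for 8 of 10 measured genes, beside 9.33% of all genes. Their median log2 ratios were 2.89 and 4.75, and the files held 25 genes of this list. Asprv1, the aspartic protease that cuts profilaggrin, was at 1662 and 763 CPM in keratinocyte-like cells of the fl/fl-labelled and +/fl-labelled libraries, and at 118 and 9.22 CPM in the others. Cst6, cystatin M/E, which inhibits cathepsins, was at 5200 and 3377 CPM, and at 385 and 117 CPM in the others, and 1 cell gave 61.2% of its UMIs in the +/fl-labelled library. Klk7, a kallikrein that cleaves corneodesmosomes, was at 277 and 93.7 CPM, and at 18.5 and 2.75 CPM in the others. Enzymes and carriers of barrier lipids were higher for 8 of 10 measured out of 22 in the files, beside the same 9.33%, with medians of 1.88 and 2.51. Elovl4, which elongates the very long fatty acids of skin ceramides, was at 274 and 267 CPM, and at 14.2 and 7.50 CPM in the others. Abca12, the lipid pump of lamellar granules, was at 32.7 and 70.8 CPM, and at 1.03 and 0.346 CPM in the others.

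Junction genes lay on both sides. Of 17 measured out of 26 in the files, 9 were higher in both libraries and 1, Dsg2, was lower in both. Over all genes, 9.33% were higher and 4.09% lower. The median log2 ratios of the junction genes were 1.06 and 2.15. Perp, a desmosome protein of stratified epithelia, was at 1104 and 2280 CPM in keratinocyte-like cells of the fl/fl-labelled and +/fl-labelled libraries, and at 148 and 202 CPM in the others. Dsp, desmoplakin, which ties keratins to desmosomes, was at 823 and 1155 CPM, and at 227 and 217 CPM in the others. Dsg2, the desmoglein of simple epithelia, was at 90.8 and 46.8 CPM, and at 192 and 215 CPM in the others, 2.12-fold (1.89 to 2.38) and 4.59-fold (3.45 to 6.26) lower.

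Transcription factors of the epidermis were higher for 14 of 23 measured out of 36 in the files, beside 9.33% of all genes. Their median log2 ratios were 1.39 and 1.91. Grhl1, a grainyhead-like activator of desmosomal genes, was at 109 and 139.6 CPM in keratinocyte-like cells of the fl/fl-labelled and +/fl-labelled libraries, and at 12.7 and 9.55 CPM in the others. Ovol1, a repressor active as keratinocytes stop dividing, was at 90.8 and 138 CPM, and at 13.8 and 5.82 CPM in the others. Gata3, a factor of skin barrier and hair as well as of T cells, was at 55.4 and 76.8 CPM, and at 7.03 and 2.40 CPM in the others. Klf4, needed for the skin barrier, was at 972 and 1127 CPM in keratinocyte-like cells, and at 319 and 299 CPM in the others. Trp63, the basal master regulator, was near its level elsewhere, at 83.5 and 80.8 CPM in keratinocyte-like cells and 54.3 and 45.0 CPM in the others.

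Epidermal cytokines and defence peptides were higher for 7 of 9 measured out of 20 in the files, beside 9.33% of all genes. Their median log2 ratios were 2.71 and 3.86. The interleukin-36 agonist Il1f6 was at 335 and 296 CPM in keratinocyte-like cells of the fl/fl-labelled and +/fl-labelled libraries, and at 15.5 and 1.01 CPM in the others. Its antagonist Il1f5 was at 173 and 229 CPM, and at 9.94 and 0.835 CPM in the others. Defb6, a beta-defensin of mouse epithelia, was at 531 and 1346 CPM, and at 76.7 and 55.4 CPM in the others. Of 5 measured calcium-binding proteins of the epidermis, Calml3, an epithelial calmodulin, was higher in both, with 494 and 862 CPM in keratinocyte-like cells and 28.8 and 15.97 CPM in the others. The skin damage gene S100a8 was at 239.5 and 7.97 CPM in keratinocyte-like cells, and at 401 and 109 CPM in the others.

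Class II antigen presentation genes, Aire and Ccl21a were at lower levels in keratinocyte-like cells, and Fezf2 was not. No class II antigen presentation gene of 10 measured was higher in both libraries, and 1 (Ciita, the class II transactivator) was lower in both. Over all genes, 9.33% were higher and 4.09% lower. The median log2 ratios of the class II genes were −0.60 and −0.90. The other Epcam-positive cells kept those with a Ptprc UMI, unlike the keratinocyte-like cells, and the part of this in the ratios was not tested. H2-Aa, a class II alpha chain, was at 3052 and 1187 CPM in keratinocyte-like cells of the fl/fl-labelled and +/fl-labelled libraries, and at 4568 and 2167 CPM in the others. Class I pathway genes stood at medians of −0.02 and 0.08, with 0 of 9 past 2-fold in both libraries either way. Aire was at 161 and 50.8 CPM in keratinocyte-like cells and 333 and 151 CPM in the others. After thinning, Aire was seen in 22.8% and 5.88% of keratinocyte-like cells and in 21.2% and 5.74% of the Ptprc-positive Epcam-negative cells, so its share was no higher than in cells used as background. H2-Aa was seen in 74.1% and 54.9% of thinned keratinocyte-like cells, 89.2% and 64.1% of the others and 70.5% and 61.5% of the Ptprc-positive cells, a set that can hold leukocytes making class II proteins. Fezf2, which drives Aire-independent antigens, was at 366 and 353 CPM in keratinocyte-like cells and 366 and 245.5 CPM in the others. Ccl21a, the T-cell attracting chemokine of immature mTECs, was at 405 and 1191 CPM, and at 2486 and 3703 CPM in the others.

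The 10 genes with the lowest ratio in both libraries were Gnat3, Rgs13, Fxyd6, Tagln, Lrmp, Avil, Mgp, Fyb, Acta2 and Sh2d6. The rule leaves tuft cells, cells with a Ptprc UMI and cells with 2 or more Gp2 UMIs out of the keratinocyte-like side only. Ptprc was seen in 7.28% and 17.5% of the other Epcam-positive cells of the fl/fl-labelled and +/fl-labelled libraries before thinning. The ratios were also taken against other Epcam-positive cells without tuft cells, but not without those with Ptprc or Gp2. Gnat3, the taste G-protein subunit, was at 3.67 and 15.9 CPM in keratinocyte-like cells of the fl/fl-labelled and +/fl-labelled libraries, and at 115 and 331 CPM in the others. Its log2 ratios were −4.64 and −4.29 against all other Epcam-positive cells, and −3.42 and −2.97 against those without tuft cells. There, Rgs13, a regulator of G-protein signalling, had −2.34 and −1.70, and Fxyd6, a sodium pump regulator, −1.60 and −2.31. Sh2d6, a tuft adaptor, had −0.50 and 0.16. The contractile genes Tagln and Acta2 had −2.69 and −3.91, and −2.54 and −3.41, and the matrix protein Mgp −3.12 and −3.44. Fibroblast matrix genes did not share this direction in both libraries, as Dcn had −1.97 and 0.31 and Col3a1 −2.58 and 0.89, and most of their UMIs in the +/fl-labelled library came from 1 keratinocyte-like cell, described with the ratios between libraries. Most cell-cycle genes were scarce in keratinocyte-like cells. Of 18, 17 were lower by any amount than in other Epcam-positive cells in both libraries. Only 1 of the 18, Hmgb2, was high enough to be measured, and 0 were counted as lower at 2-fold. The share of all genes lower by any amount was not counted, so the 17 are a description only. Pcna was the exception, with log2 ratios of 0.12 and −0.25 against those without tuft cells. The abundant Hmgb2 had −0.33 and −0.61 against all others, beside medians of −0.08 and −0.09 over all measured genes. Leaving out these 2, the other 16 stood at 2.14 to 13.5 and 0 to 7.98 CPM in keratinocyte-like cells. In the other Epcam-positive cells they stood at 6.77 to 42.5 and 9.02 to 46.0 CPM.

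The keratinocyte-like cells were far from uniform. The summed rule level per cell had a median of 34.8 per 10000 in the fl/fl-labelled library, with values from 8.04 to 1220, and a median of 46.7 in the +/fl-labelled library, with values from 8.19 to 671.4. Of the cells of the fl/fl-labelled library, 113, 84, 43 and 11 had 2, 3, 4 and 5 of the rule genes detected, and of those of the +/fl-labelled library 18, 15, 18 and 4 did. Expression was concentrated in few cells. The 10% of cells with the most UMIs of a gene, 25 cells of the fl/fl-labelled library and 6 of the +/fl-labelled library, held 60.6% and 52.7% of Krtdap UMIs and 53.6% and 47.2% of Spink5 UMIs. Krtdap reached 572 and 524 per 10000 in its highest cell, with medians of 5.13 and 53.6.

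**Figure D2:**
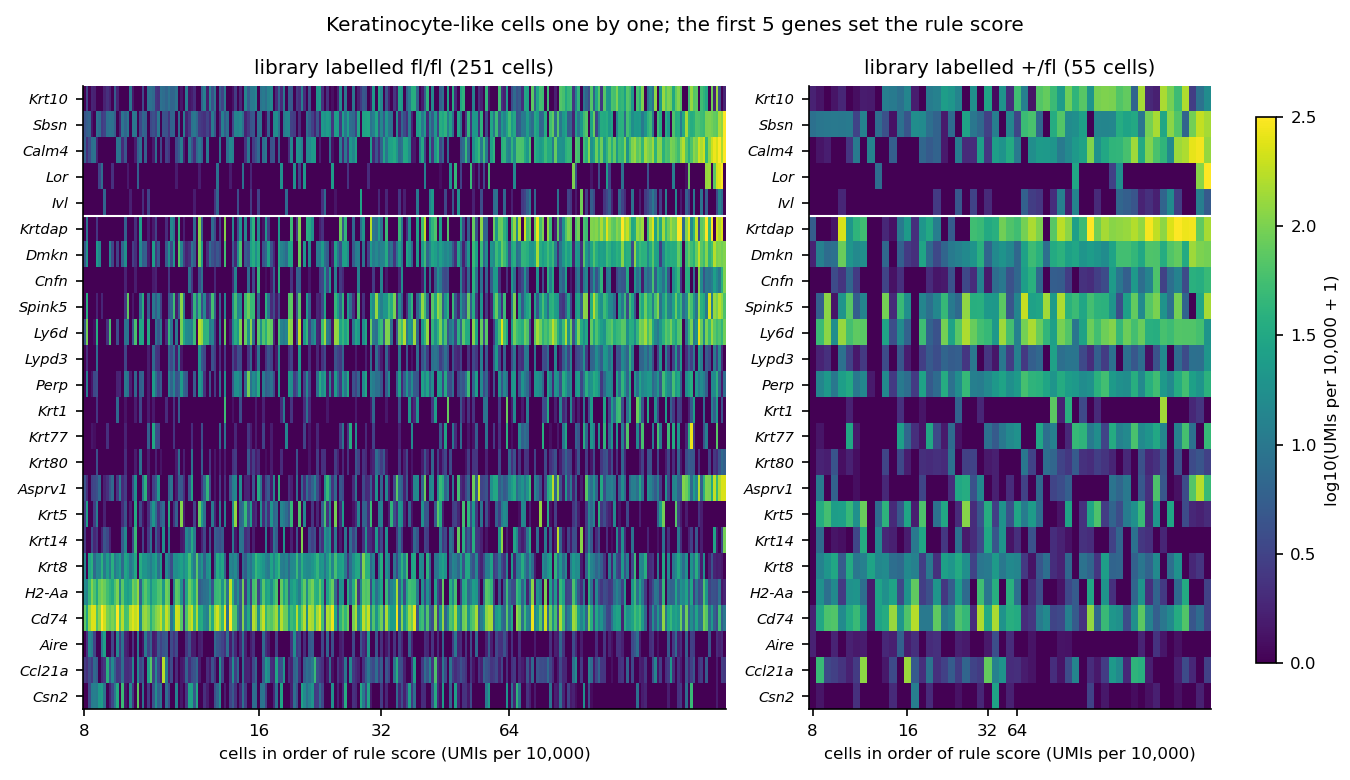
Each column is 1 keratinocyte-like cell, in order of its summed rule level from low (left) to high (right), for the fl/fl-labelled library (251 cells) and the +/fl-labelled library (55 cells), and each row is 1 gene, coloured by log10 of UMIs per 10000 plus 1. Krtdap and Dmkn brighten towards the right, H2-Aa and Cd74 dim, and Lor is seen in 18.3% and 10.9% of the cells.

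Cells were split by the summed rule level into 8 to 16, 16 to 32, 32 to 64, and 64 and over per 10000. These bins held 68, 48, 50 and 85 cells of the fl/fl-labelled library and 13, 11, 4 and 27 cells of the +/fl-labelled library, whose first 3 bins are under 20 cells and are thin. In the fl/fl-labelled library, Krtdap was at 716, 1592, 2286 and 10655 CPM from the lowest bin to the highest. Dmkn, dermokine, a secreted protein of suprabasal keratinocytes encoded beside it, was at 972, 1061, 1850 and 4071 CPM. Perp followed with 699, 926, 1104 and 1570 CPM. These 3 genes outside the rule were higher in each bin than in the one before. Spink5 was high from the lowest bin on, with 1662, 1397, 2727 and 4064 CPM.

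Class II genes and Krt5 ran the other way. In the fl/fl-labelled library, H2-Aa was at 4565, 4043, 2971 and 1153 CPM from the lowest bin to the highest, and Aire was at 235 CPM in the lowest bin and 90.6 CPM in the highest, with the middle bins between these. The basal keratin Krt5 was at 1318, 1153, 1033 and 269 CPM. H2-Aa and Krt5 were lower in each bin than in the one before. The summed class II pathway was as well, at 25920, 23321, 17140 and 7461 CPM. Other summed lists had no steady order and were lowest in the highest bin, with Aire-stage markers at 3051, 2764, 3132 and 1827 CPM, immature mTEC markers at 3087, 3108, 3592 and 2134 CPM and basal genes at 2063, 1871, 2112 and 1356 CPM. In the +/fl-labelled library, the highest bin differed from the lowest in the same direction, with H2-Aa at 1254 CPM in the lowest bin and 439 CPM in the highest, Krt5 at 2625 and 1292 CPM, Aire at 55.0 and 18.2 CPM, and Krtdap at 4048 and 17731 CPM. The middle bins there, of 11 and 4 cells, did not follow a steady order, with Krtdap at 1326 and 4404 CPM and H2-Aa at 1887 and 3002 CPM. Per cell, Spearman's rho with the rule level was 0.60 and 0.76 for Krtdap, 0.62 and 0.73 for Dmkn, and −0.46 and −0.32 for H2-Aa, across 251 cells of the fl/fl-labelled library and 55 of the +/fl-labelled library. These are descriptions, as the cells of a library share its preparation and both measures are fractions of the same cell's UMIs.

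**Figure D3:**
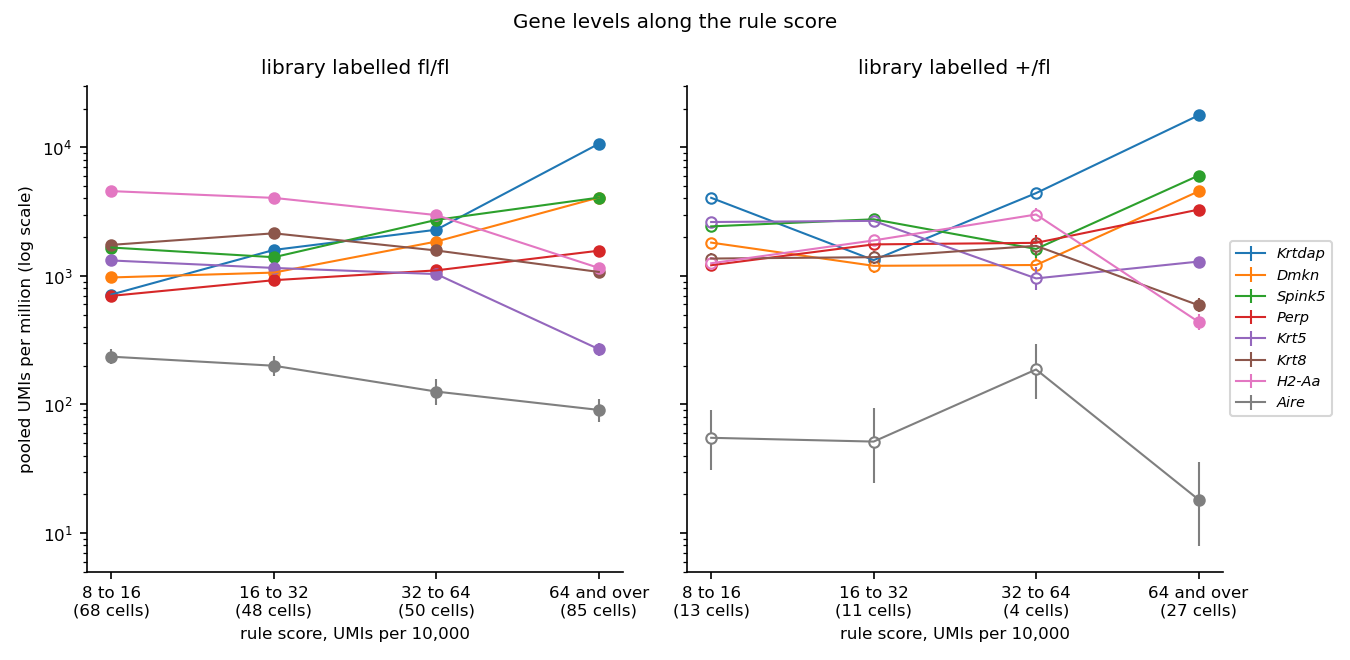
CPM (log axis) of 8 genes in 4 bins of the summed rule level, for the fl/fl-labelled library (left) and the +/fl-labelled library (right), with exact 95% counting intervals and open circles for bins under 20 cells. In the fl/fl-labelled library Krtdap is at 716 CPM in the lowest bin and 10655 CPM in the highest, and H2-Aa at 4565 and 1153 CPM.

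Near the threshold the cells were mixed. Just inside it, at 8 to 10 per 10000, were 24 and 3 cells of the fl/fl-labelled and +/fl-labelled libraries, and just outside it, at 6 to 8 per 10000 with all other conditions met, were 25 and 6 cells. Krtdap stood at 73.8 and 14.7 CPM inside and 132 and 721 CPM outside. Spink5 stood at 850.0 and 3006 CPM inside and 641 and 863 CPM outside.

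Keratinocyte-like cells made up a larger share of the fl/fl-labelled library. Among Epcam-positive cells the share was 3.15% (2.76 to 3.58, 229 of 7272 cells) in the fl/fl-labelled library and 1.18% (0.887 to 1.54, 54 of 4579 cells) in the +/fl-labelled library, a ratio of 2.67 (1.98 to 3.66). Tuft cells, defined by the summed tuft genes of the rule, made up 10.1% of Epcam-positive cells in the fl/fl-labelled library and 39.9% in the +/fl-labelled library. Without them the shares were 3.50% (3.07 to 3.98) and 1.96% (1.48 to 2.55), and the ratio was 1.79 (1.32 to 2.45). With every cell thinned to 2000 UMIs before the rule was applied, the shares of Epcam-positive cells were 2.86% and 0.903%, a ratio of 3.17. Intervals are exact and treat the cells as the unit, so the spread between mice is not in them.

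**Figure D4:**
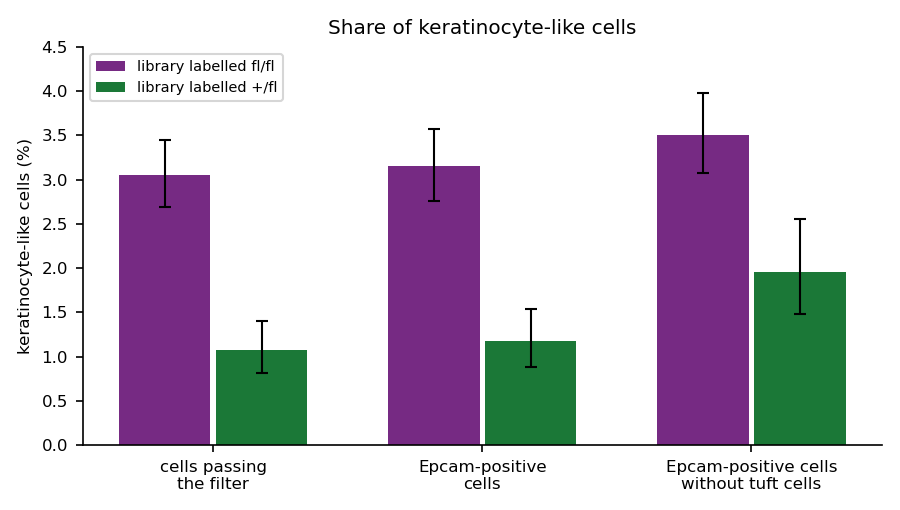
Keratinocyte-like cells as a percentage of 3 denominators in the fl/fl-labelled library (purple) and the +/fl-labelled library (green), with exact 95% binomial intervals that cover counting error only. The bars for the fl/fl-labelled library are higher for each denominator, and the gap is smallest without tuft cells, at 3.50% against 1.96%.

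Within keratinocyte-like cells, the fl/fl-labelled library was higher than the +/fl-labelled library for 208 of 3526 measured genes (5.9%) and lower for 105 (2.98%), sex-linked Xist, Tsix and Y genes left out. In the other Epcam-positive cells, 223 of 3523 genes (6.33%) were higher and 134 (3.8%) lower. Of the 2857 genes measured in both sets of cells, 89 were higher in both and 19 lower in both. The median log2 ratio over all genes was −0.06 in each set. Both sets come from the same 2 libraries, so the ratios are given side by side and neither supports the other.

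Class II antigen presentation and Aire-stage genes were mostly higher in keratinocyte-like cells of the fl/fl-labelled library. Class II pathway genes were higher in the fl/fl-labelled library for 8 of 9 measured, beside 5.9% of all genes, and lower for 0, with a median log2 ratio of 1.25 in keratinocyte-like cells and 0.89 in the others. H2-Aa was at 3052 CPM in the fl/fl-labelled library and 1187 CPM in the +/fl-labelled library, 2.57-fold (2.42 to 2.73) higher. Cd74, the invariant chain, was at 8024 and 3889 CPM, and H2-Oa, a chain of the peptide-loading regulator DO, at 189 and 31.9 CPM. In the bin of 64 and over, where both libraries had more than 20 cells, the summed class II pathway stood at 7461 CPM in the fl/fl-labelled library and 3537 CPM in the +/fl-labelled library. Aire-stage genes were higher for 5 of 7, with a median of 1.64, and 0.92 in the others. Aire was at 161 and 50.8 CPM, 3.16-fold (2.37 to 4.30) higher in the fl/fl-labelled library, and its thinned shares were at those of the Ptprc-positive cells in each library. Cd52, a surface glycoprotein, was at 1338 and 274 CPM. Markers of myeloid and dendritic cells, which also carry class II genes, were higher in the same library. Their sum was 707 CPM in keratinocyte-like cells of the fl/fl-labelled library and 153.5 CPM in those of the +/fl-labelled library, and 899.9 and 424 CPM in the other Epcam-positive cells. Both measured members, the lysozyme Lyz2 (551 and 104 CPM) and the actin bundler Fscn1 (69.4 and 19.9 CPM), were past 2-fold within keratinocyte-like cells. Of the 11 markers, Cd209a was at 0 in keratinocyte-like cells of the fl/fl-labelled library, and Cd209a, Itgax, Xcr1 and Flt3 were at 0 in those of the +/fl-labelled library. The part of such cells or their RNA in the class II values was not tested. Class I genes had a median of 0.42 with 0 of 9 past 2-fold, and dissociation stress genes one of −0.11 with 0 of 16.

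The epidermal lists differed among themselves. Over all genes, 5.9% were higher and 2.98% lower in the fl/fl-labelled library. The median log2 ratio of fl/fl over +/fl within keratinocyte-like cells was 0.08 for 25 envelope genes, with 7 higher and 1 lower, −0.71 for 12 keratins, with 1 higher and 3 lower, and −0.34 for 15 lipid genes, with 0 higher and 2 lower. For 17 junction genes it was −0.11, with 0 higher and 1 lower, and for 25 regulators −0.21, with 1 higher and 1 lower. Krtdap was lower in the fl/fl-labelled library, at 4410 CPM against 9551 CPM in the +/fl-labelled library, and so was Krt5, at 891 CPM against 1891 CPM. Proteases and inhibitors had 7 of 15 higher, 0 lower and a median of 0.62. Calcium-binding proteins had 3 of 7 higher, S100a3, S100a8 and S100a9, 0 lower and a median of 0.15, and cytokines and defence peptides had 0 of 10 higher, 2 lower and a median of −0.22. Members past 2-fold lay mostly on the fl/fl side for envelope genes, proteases and calcium-binding proteins. They lay mostly on the +/fl side for keratins, lipid genes and cytokines. Of the 7 envelope genes, Lor had 99.2% and 100% of its UMIs in its top 10% of cells. Others of the 7 were Sprr2 genes, each in at most 7.17% and 3.64% of cells. In the other Epcam-positive cells, 5 of 8 envelope genes were higher and 1 lower (median 1.37). There, 6 of 8 proteases were higher and 0 lower (median 1.90). Calcium-binding proteins had 2 of 5 higher there, and keratins, lipid genes and cytokines 0 of 1, 1 of 2 and 1 of 4. All 10 skin kallikreins from Klk5 to Klk14 had a higher level in the fl/fl-labelled library, although several had fewer than 10 UMIs in the other library. By any amount, 1575 of the 3526 measured genes were higher in the fl/fl-labelled library and 1951 lower. The 10 kallikreins were not all measured, as their levels went down to 2.14 CPM in the fl/fl-labelled library and 0 CPM in the other. Their count is therefore a description only. Klk7 was at 277 CPM in the fl/fl-labelled library and 93.7 CPM in the +/fl-labelled library, and Klk13, a further skin kallikrein, at 97.9 and 22.9 CPM.

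**Figure D5:**
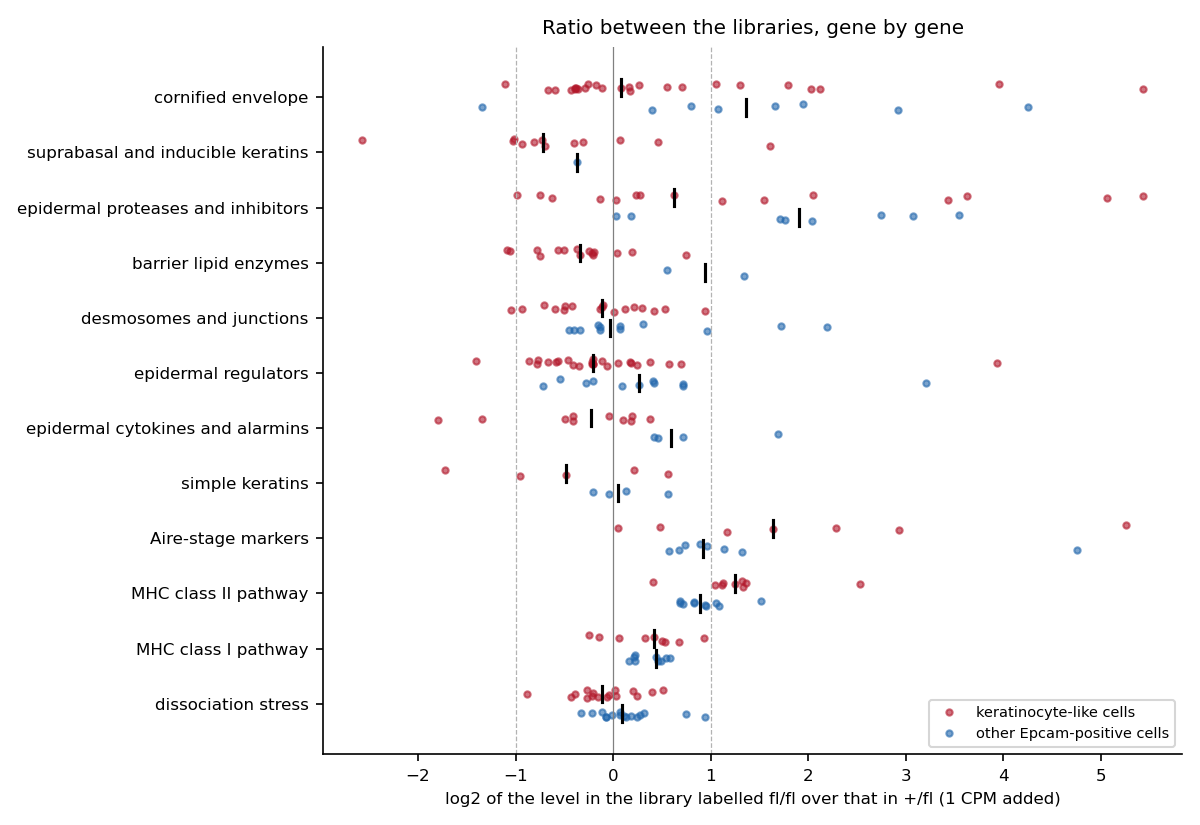
Log2 ratio of the level in the fl/fl-labelled library over that in the +/fl-labelled library (1 CPM added) for each measured gene of 12 lists, in keratinocyte-like cells (red, upper row of each pair) and other Epcam-positive cells (blue, lower row), with black bars at the medians and dashed lines at 2-fold. Class II pathway genes lie to the right in both (medians 1.25 and 0.89), while keratins of keratinocyte-like cells have a median of −0.71.

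Several of the largest ratios rested on single cells. The 10 genes highest in the fl/fl-labelled library were Klk1b26, 9130204L05Rik, Klk1b16, Chil4, Ptgds, Klk1, Klk1b11, Prl2a1, Spp1 and Oxt. Of these, 9 were at 0 UMIs in keratinocyte-like cells of the +/fl-labelled library and Oxt, oxytocin, was at 1 UMI there. Taken against 3 UMIs over the 55 cells, the glandular kallikrein Klk1b26 was at least 111-fold higher, at 332 CPM in the fl/fl-labelled library. Ptgds, a prostaglandin D synthase, was at least 63.4-fold higher, at 189.6 CPM. The kallikreins of this group are close copies that can share reads, and 1 cell held 41.8% to 46.0% of the UMIs of each of the 4. That cell had 18112 UMIs, a rule level of 14.4 per 10000 and 17 Epcam UMIs. A single cell also held 98.9% of the UMIs of 9130204L05Rik and 99.2% of those of Prl2a1, a prolactin-family gene.

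The 10 genes lowest in the fl/fl-labelled library were Pi16, Col1a2, Col3a1, Mfap5, Sparc, Dcn, Gpx6, Sostdc1, Stmn2 and Capns2. The first 6 are genes of fibroblasts and matrix, and 1 of the 55 cells of the +/fl-labelled library held 87.4% to 100% of the UMIs of each. That cell had 13429 UMIs, a rule level of 8.19 per 10000, 2 rule genes and 0 Epcam UMIs. The summed fibroblast markers were 22.3 CPM in keratinocyte-like cells of the fl/fl-labelled library and 479.5 CPM in those of the +/fl-labelled library, and 103.5 and 198 CPM in the other Epcam-positive cells. Without that cell, the log2 ratio was 0.94 for the collagen Col3a1, 0.80 for the proteoglycan Dcn and 1.31 for the microfibril gene Mfap5. Capns2, a small calpain subunit, was spread more evenly. It was at 19.9 CPM in the fl/fl-labelled library, in 8.76% of cells, and at 126 CPM in the +/fl-labelled library, in 38.2% of cells, 6.32-fold (4.65 to 8.66) lower in the fl/fl-labelled library. Gpx6, a glutathione peroxidase, was at 5.81 and 73.8 CPM, and in the other Epcam-positive cells at 24.8 and 160 CPM. Over all genes, leaving out the cell with the most UMIs of each gene in each library brought the count lower in the fl/fl-labelled library to 52, from 105, and the count higher to 232, from 208.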

How the data were processed

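Sorted EPCAM+Ly51- thymic cells were captured with a droplet 3′ kit and sequenced, per the labels' protocols. The submitters' processing notes name Cell Ranger and Seurat, without versions, and the genome build is not given in the sources used here. The deposited matrices hold raw UMI counts per gene and barcode, as made by the authors' pipeline. The keratinocyte-like cells and all gene lists were chosen with earlier results of these data known, so counts over a list describe and support nothing. Python 3.11.15, numpy 2.4.6, scipy 1.17.1, pandas 2.3.3, scanpy 1.11.5, matplotlib 3.10.9 and edgeR 4.0.16 (TMM factors in an alternative) were used. UMIs were summed per library and set of cells, and given as CPM with exact Poisson intervals. Log2 ratios added 1 CPM. Ratios between libraries used genes that reached 50 CPM in 1 or both libraries and 50 UMIs over both. Shares have Clopper-Pearson intervals. Scrublet in scanpy called 0 and 2 doublets in the fl/fl-labelled and +/fl-labelled libraries, and these calls were not relied on. Instead, the 539 and 208 cells with the highest Scrublet scores were removed as an alternative, 8 and 1 of them keratinocyte-like. Named genes were the 15 highest and 10 lowest ratios against other Epcam-positive cells, taken by the library with the smaller difference, the 10 highest and 10 lowest between libraries, and members of the lists. Single other genes were picked after their values were seen. On simulated counts, 4-fold differences were recovered for 97 of 97 and 84 of 84 genes between cell sets, and for 98 of 98 and 77 of 77 between libraries. These counts held counting error only and no spread between cells. They therefore check the calculation and do not measure how reliable the calls are where few cells hold most UMIs.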

Additional observations from a re-analysis of the deposited data

Results flagged for a closer look

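Barcodes outside the cell filter also met the rule. There were 50 of 2887 such barcodes in the fl/fl-labelled library (1.73%) and 19 of 2205 in the +/fl-labelled library (0.862%), of which 38 and 15 were over the mitochondrial limit. Their median mitochondrial share was 19.3% and 22.7%, and their median depth was 1876.5 and 4308 UMIs.

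Reg1, a secreted protein of pancreas and gut, lay in opposite directions in the cell sets. Its log2 ratio of the fl/fl-labelled library over the +/fl-labelled library was −1.10 in keratinocyte-like cells (49.2 against 107 CPM) and 1.13 in other Epcam-positive cells (55.4 against 24.8 CPM), and the difference was not tested. It was seen in 13 keratinocyte-like cells of the fl/fl-labelled library and 2 of the +/fl-labelled library, and 1 cell in each held 78.9% and 99.1% of its UMIs.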

How the results depend on the processing

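No paired analysis was possible because each genotype has 1 library and no result comes from a test. With 1 library a group, no library could be left out. Thresholds of 5 and 16 per 10000 gave keratinocyte-like shares of 3.73% and 2.28% in the fl/fl-labelled library. At least 3 rule genes gave 1.80% there and 0.808% in the +/fl-labelled library, and the rule without Krt10 gave 2.25% and 0.874%. Without tuft cells the share in the +/fl-labelled library was 1.96% and the ratio of shares 1.79. The ratio lay between 1.79 and 3.17 over the alternatives run. With no filter on low counts, 831 genes were higher and 1159 lower in keratinocyte-like cells, and 2917 were higher and 951 lower in the fl/fl-labelled library, since 22851 and 19398 genes were then counted. The count lower in the fl/fl-labelled library was 193 on means of per-cell CPM and 52 without each gene's top cell. The other 49 alternative values of shares and counts stayed within their intervals or 1.5 times.

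Ratios that turned round are few, and their cause was not tested beyond the cells left out. The secretory list's median in the +/fl-labelled library was −0.56 with no filter. Against cells without tuft cells, Cdhr5 and Sh2d6 in the +/fl-labelled library had log2 ratios of 0.09 and 0.16. At a threshold of 16, keratinocyte-like over other cells of the +/fl-labelled library was −0.36 for Krt19 and −1.37 for Sparc. The log2 ratio of fl/fl over +/fl at that threshold was 0.51 for Col3a1, 0.12 for Dcn, 0.16 for Gnb3, 0.04 for Krt20, 2.62 for Mfap5 and 0.51 for Pi16. At a threshold of 64 it was 1.80 for Dcn, 1.84 for Gnb3, 0.07 for Lrmp, 2.26 for Mfap5 and 1.53 for Sostdc1. Without each gene's top cell it was 0.69 for Col3a1, 0.59 for Dcn and 0.78 for Mfap5, and without the fibroblast-marker cell 0.94, 0.80 and 1.31. On means of per-cell CPM it was −0.15 for Lor. The gene ratios without tuft cells, without single cells and at the threshold of 64 were chosen after seeing the data. The +/fl-labelled library, with 55 keratinocyte-like cells, limits every ratio between libraries.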

Other observations

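Some keratinocyte genes were also seen outside the chosen cells. After thinning, Krtdap was found in 52.2% and 82.4% of keratinocyte-like cells of the fl/fl-labelled and +/fl-labelled libraries, 7.83% and 14.5% of other Epcam-positive cells, and 0.685% and 3.28% of Ptprc-positive Epcam-negative cells. Of the secretory-cell markers, Bpifa1 passed 2-fold in both libraries and Wfdc18 in the +/fl-labelled library. Wfdc18, a secreted small protein with a protease-inhibitor fold, was at 3823 and 6098 CPM in keratinocyte-like cells of the fl/fl-labelled and +/fl-labelled libraries, and at 2091 and 1810 CPM in the other Epcam-positive cells. Bpifa1, an airway defence protein, was at 1251 and 1900 CPM, and at 299.9 and 235.5 CPM in the others. Agr2, a mucus-cell chaperone of the same list, stood at 3.36 and 6.98 CPM in keratinocyte-like cells and 45.8 and 4.95 CPM in the others.

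Keratins of the oral and oesophageal lining were at low levels, though Krt4 was higher in keratinocyte-like cells than in other Epcam-positive cells of both libraries. Krt4 was at 41.3 and 67.8 CPM in keratinocyte-like cells, and at 10.1 and 4.78 CPM in the others. Krt13 was at 20.8 CPM in keratinocyte-like cells of the fl/fl-labelled library, where 1 cell held 50% of its UMIs, and had no UMI in those of the +/fl-labelled library.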
